A study of Mus musculus with 42 samples.

Results

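Low-flow carotid intima from mice that had received the neutrophil-depleting antibody anti-Gr1 was compared with low-flow carotid intima from mice that had received control IgG. The groups were taken from the sample labels, and each held 2 libraries, so that 4 of the 42 samples of the series entered the comparison. All were male C57BL/6J mice aged 6 to 7 weeks, whose left carotid artery had been partially ligated 48 hr earlier, and the intimal RNA was flushed out with Trizol. Each library was a pool of 3 to 5 arteries, so a library is not an animal, and nothing shows which pools came from one surgery. Anti-Gr1 (clone RB6-8C5) was given intraperitoneally at 25 µg, 24 hr before the ligation. The same IgG pools were the control for a second antibody, anti-GPIbα, which removes platelets and was given at 50 µg at the time of ligation, and which of these injection schedules the sequenced IgG pools had was not given in the sources used here. A second depletion at low flow, with clodronate liposomes against PBS liposomes, had controls of its own. The libraries after clodronate liposomes, PBS liposomes and anti-GPIbα at low flow, and after IgG and PBS liposomes at high flow, 2 each, shared the fit that gives the standard errors and adjusted p-values, and their levels serve to place the anti-Gr1 values.

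Neutrophils are short-lived granulocytes that leave the bone marrow under G-CSF, are guided by chemokines acting on Cxcr2, and roll on P- and E-selectin before they cross an activated endothelium. Gr-1 is the name of the epitope that the RB6-8C5 clone binds. It lies on Ly6G, found on neutrophils, and the clone also binds Ly6C, a related protein carried by many monocytes and, in mice, by endothelial cells. Clodronate liposomes act on phagocytes, mainly monocytes and macrophages, so the 2 depletions overlap in the cells that they can reach. In pooled tissue, a lower level of a cell type's genes can come from fewer cells or from less RNA per cell, and these cannot be told apart here.

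The 4 libraries held 15745631 to 19035957 expected counts, and the 14 libraries of 150 bp reads that shared one fit held 12286104 to 19035957. Levels are given as FPKM, expected counts relative to the effective length of the transcript and to the total count of the library, and differences as Log2 fold-change of anti-Gr1 against IgG from edgeR's quasi-likelihood test, with the standard error (SE). An adjusted p below is from this test over the 7 groups unless another fit is named. Of 13401 genes tested, 0 (0%) had an adjusted p under 0.05, the smallest adjusted p being 0.243. An unadjusted p under 0.05 was reached by 2432 genes, of which 1394 (10.4%) were lower and 1038 (7.75%) were higher after anti-Gr1. The same 4 libraries gave other counts with other fits. DESeq2 on the same 7 groups called 96 genes lower (1.34% of the 7165 genes with an adjusted p) and 105 higher (1.47%), while edgeR on the 4 libraries alone called 216 lower (1.69% of 12811) and 9 higher (0.0703%). Both anti-Gr1 libraries lay below both IgG libraries in 4019 genes (30.0%) and above both in 2823 (21.1%), and the counts of each gene list below are to be read against these shares. An exact permutation test of 2 against 2 libraries cannot go below a two-sided p of 0.333.

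The promoters of some genes from the lists used below are shown first. Each is 300 bases of the RefSeq mouse sequence (GRCm38.p6), from 250 bases before to 50 bases after the start, written 5′ to 3′ on the strand of the gene. Motifs were searched as letters on both strands, and capitals mark the matches. The genes shown were picked as members with the lowest p whose promoter held the motif of their list. The shares of promoters cover the tested members of a list whatever their difference, so they say nothing about the effect of anti-Gr1. For the neutrophil genes the letters were AGAGGAA, a core of the sites bound by the myeloid factor PU.1, here in Csf3r (chr4:126024409-126024708, plus strand, match at -87) and Cxcr2 (chr1:74153744-74154043, plus strand, match at -81).
Csf3r: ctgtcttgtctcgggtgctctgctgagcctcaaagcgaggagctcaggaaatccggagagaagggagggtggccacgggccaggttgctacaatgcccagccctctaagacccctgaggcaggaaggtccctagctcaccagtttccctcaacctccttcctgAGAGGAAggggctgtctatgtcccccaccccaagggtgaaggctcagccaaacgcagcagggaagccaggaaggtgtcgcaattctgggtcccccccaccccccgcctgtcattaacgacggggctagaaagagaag
Cxcr2: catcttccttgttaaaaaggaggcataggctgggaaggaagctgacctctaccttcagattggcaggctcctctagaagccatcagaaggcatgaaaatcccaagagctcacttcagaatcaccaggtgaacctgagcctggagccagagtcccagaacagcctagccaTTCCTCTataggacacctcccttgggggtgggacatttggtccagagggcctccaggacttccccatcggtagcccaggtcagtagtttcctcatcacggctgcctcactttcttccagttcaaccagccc

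AGAGGAA was present in 10 of the 30 promoters of neutrophil genes that matched a RefSeq symbol (33.3%), against 3419 of 32851 promoters in all (10.4%). For the interferon-stimulated genes the letters were GAAA, any 2 bases and GAAA again, the core of the interferon-stimulated response element, which interferon-activated factors bind. It is shown in Ifit1 (chr19:34640639-34640938, plus strand, matches at -104 and -85) and Ifit3 (chr19:34583279-34583578, plus strand, matches at -156 and -122).
Ifit1: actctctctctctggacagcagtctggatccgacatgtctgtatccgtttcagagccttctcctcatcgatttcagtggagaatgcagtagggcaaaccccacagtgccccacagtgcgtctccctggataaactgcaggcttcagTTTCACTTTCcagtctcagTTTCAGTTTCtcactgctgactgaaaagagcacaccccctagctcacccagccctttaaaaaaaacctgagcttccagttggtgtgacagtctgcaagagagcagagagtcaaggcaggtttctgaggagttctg
Ifit3: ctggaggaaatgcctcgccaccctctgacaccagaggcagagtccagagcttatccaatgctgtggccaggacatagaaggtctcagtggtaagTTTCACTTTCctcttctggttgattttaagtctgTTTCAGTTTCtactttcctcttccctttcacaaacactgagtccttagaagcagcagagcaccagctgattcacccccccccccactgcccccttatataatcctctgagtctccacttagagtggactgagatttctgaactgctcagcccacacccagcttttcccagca

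These letters were held by 11 of 19 interferon-stimulated promoters (57.9%; 17 of 25 genes matched) and by 1131 of all 32851 (3.44%). For DNA replication genes the letters were TTTGGCGC or TTTCCCGC, forms of the site for E2F factors, found in 7 of 16 promoters (43.8%; 15 of 21 genes matched) and in 514 of all promoters (1.56%). For mitosis genes they were TTTGAA, the cell-cycle homology region, a shorter string, which was found in 14 of 20 promoters (70.0%; 19 of 22 genes matched) and in 5878 of all promoters (17.9%). Mcm7 (chr5:138171834-138172133, minus strand, match at -165) and Cdc20 (chr4:118437294-118437593, minus strand, match at -18) are shown. A match is a string of letters in this window and was not tested as a bound site.
Mcm7: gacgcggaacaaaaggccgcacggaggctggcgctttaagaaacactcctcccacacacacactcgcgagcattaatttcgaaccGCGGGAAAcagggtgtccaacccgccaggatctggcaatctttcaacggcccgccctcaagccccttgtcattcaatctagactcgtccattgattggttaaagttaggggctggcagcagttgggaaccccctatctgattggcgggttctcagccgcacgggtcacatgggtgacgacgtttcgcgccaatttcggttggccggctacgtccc
Cdc20: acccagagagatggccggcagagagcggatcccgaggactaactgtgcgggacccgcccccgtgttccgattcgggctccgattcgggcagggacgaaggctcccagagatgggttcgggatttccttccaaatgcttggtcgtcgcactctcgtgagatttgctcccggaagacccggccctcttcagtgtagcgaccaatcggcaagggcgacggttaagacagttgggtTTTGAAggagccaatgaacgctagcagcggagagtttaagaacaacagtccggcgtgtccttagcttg

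Genes of the neutrophil surface and of neutrophil signalling were lower after anti-Gr1. All 14 genes tested of this list had both anti-Gr1 libraries below both IgG libraries, 6 had an unadjusted edgeR p under 0.05 and 0 passed after adjustment over all genes. Their median Log2 fold-change was -2.47 (a 5.55-fold lower level), beside a median of 0.00 over all genes tested. Summed over the list, the level was 27.1 and 42.2 FPKM after anti-Gr1 and 281 and 140 FPKM after IgG. The groups did not overlap in this sum, and the lower IgG library was still well above the higher anti-Gr1 library.

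Cxcr2, the chemokine receptor that draws neutrophils out of the blood (chr1:74200563-74207812, plus strand, mm9), was at 0.782 and 0.307 FPKM after anti-Gr1 and 27.2 and 7.79 FPKM after IgG. Its Log2 fold-change of -4.98 ± 1.09 (SE) was the largest of this list, with an edgeR adjusted p of 0.243 and an adjusted p of 0.0126 in the fit of the 4 libraries alone. Csf3r, the G-CSF receptor (chr4:125701794-125722219, plus strand, mm9), was at 2.02 and 2.48 FPKM against 32.3 and 11.1 FPKM, a Log2 fold-change of -3.24 ± 0.69 (SE; adjusted p = 0.243). Il1r2 (chr1:40141613-40182064, plus strand, mm9), the decoy receptor for interleukin-1, was at 4.35 and 3.87 FPKM against 92 and 47.2 FPKM, a Log2 fold-change of -4.06 ± 0.76 (SE). With DESeq2 on the 7 groups it had the smallest adjusted p of the comparison, 1.76e-06. Cd177, a neutrophil surface glycoprotein, was at 0.176 and 0.297 FPKM against 6.26 and 4.66 FPKM (Log2 fold-change -4.49 ± 1.41, SE). In these 4 genes both anti-Gr1 libraries were far below both IgG libraries, and IgG 1 was the higher of the IgG libraries.

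Other members had smaller differences. Trem1, an activating receptor, was at 1.27 and 1.44 FPKM against 10.7 and 3.73 FPKM. Fpr1, the formyl peptide receptor, was at 1.15 and 2.21 FPKM against 5.66 and 3.65 FPKM. Lilrb3, shared with monocytes, was the least reduced of the list, at 9.76 and 16 FPKM against 32 and 22 FPKM (Log2 fold-change -1.04 ± 0.56, SE; edgeR adjusted p = 0.338). Cxcr1 was at 0 counts over both anti-Gr1 libraries and 11 counts over both IgG libraries, at least 3.45-fold lower with a floor of 3 counts over the group. Ly6g, the gene of the main target of the antibody, was not analysed here.

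**Figure D1:**
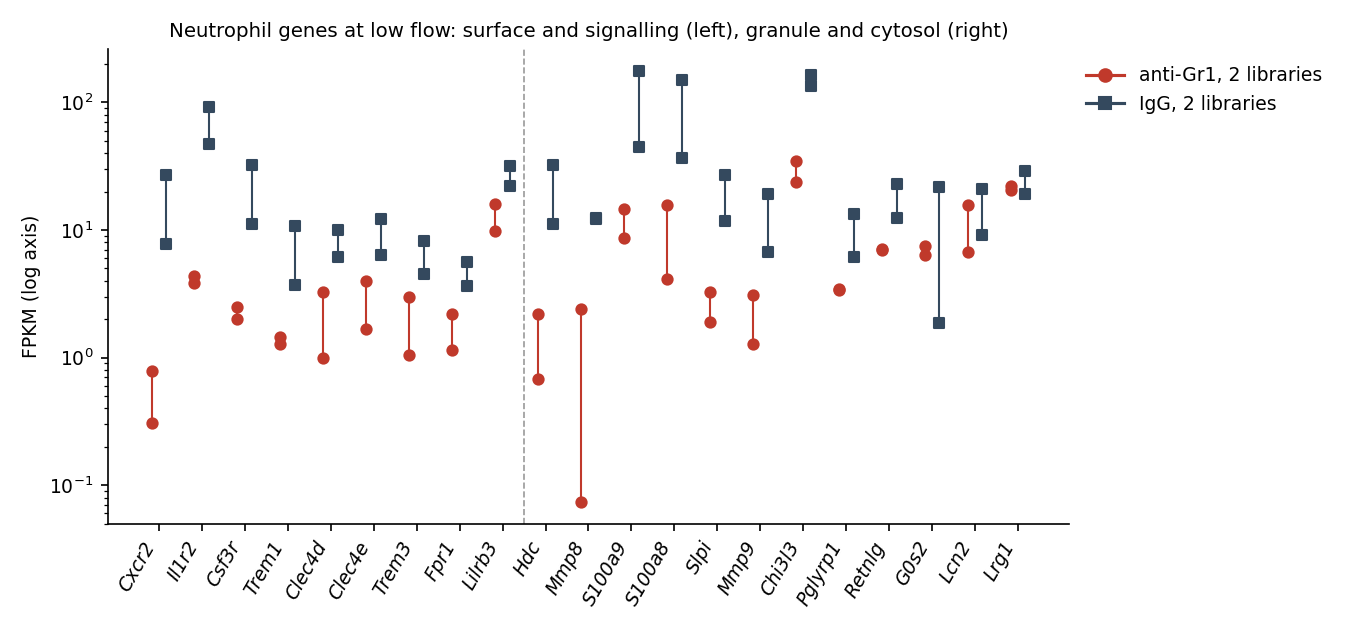
Levels of 21 neutrophil genes (reported here, with at least 3 FPKM on average over the 4 libraries, a mean that the IgG libraries dominate, so that the set is a description) in FPKM on a log axis; circles are the 2 anti-Gr1 libraries and squares the 2 IgG libraries, joined by a line. Cxcr2 lies at 0.307 and 0.782 FPKM against 7.79 and 27.2 FPKM, while Lcn2, Lrg1 and G0s2 at the right overlap between the groups.

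Granule and cytosolic genes of neutrophils were lower too, with more overlap between the groups. Of 19 genes tested, 19 had a Log2 fold-change below 0, 10 had both anti-Gr1 libraries below both IgG libraries, and 6 had an unadjusted edgeR p under 0.05. Their median Log2 fold-change was -2.33. The calprotectin subunits, the most abundant cytosolic proteins of neutrophils, were S100a8 (4.1 and 15.6 FPKM against 151 and 36.7) and S100a9 (8.72 and 14.6 FPKM against 177 and 44.5). Their Log2 fold-changes were -3.20 ± 0.96 and -3.21 ± 1.02 (SE), but -1.88 and -1.93 without the IgG 1 library and -4.53 and -3.69 without the anti-Gr1 2 library. S100a8 and S100a9 followed each other across the 4 libraries, with the IgG 1 pool highest for both. Chi3l3, a chitinase-like protein of neutrophils and alternatively activated macrophages, was at 24 and 34.8 FPKM against 134 and 165 FPKM (Log2 fold-change -2.33 ± 0.48, SE; DESeq2 adjusted p = 0.00086). Hdc, which makes histamine, was at 0.685 and 2.19 FPKM against 32.1 and 11.2 FPKM, and Slpi, a secreted inhibitor of neutrophil elastase, at 3.26 and 1.91 FPKM against 27.1 and 11.8 FPKM. Mmp8, the neutrophil collagenase, was at 0.0736 and 2.42 FPKM against 12.4 and 12.3 FPKM, so the anti-Gr1 libraries themselves were far apart.

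Other members overlapped between the groups. Lcn2, lipocalin 2, was at 6.71 and 15.6 FPKM against 21.1 and 9.11 FPKM, and Lrg1 at 22.1 and 20.6 FPKM against 28.8 and 19 FPKM. Primary granule genes, which are transcribed in the bone marrow and not in mature neutrophils, were near 0 in both groups, apart from Mpo in IgG 1. Mpo was at 0 and 0.0529 FPKM against 1.04 and 0.0219 FPKM, Ctsg at 0 counts against 10 counts and Elane at 0 and 0.409 FPKM against 0.156 and 0 FPKM.

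Across both neutrophil lists, 24 of 33 genes tested had both anti-Gr1 libraries below both IgG libraries and 0 had them above, 12 had an unadjusted p under 0.05, and the median Log2 fold-change was -2.38. Of the 44 genes listed, 42 had a row and 33 passed the filter on low counts, so these counts leave out 9 genes of low counts. The median was -1.18 without the IgG 1 library and -3.09 without the IgG 2 library. Of the 42 genes with a row, 11 and 7 were at 0 counts in the anti-Gr1 libraries and 4 and 7 in the IgG libraries. The surface list summed to 2.24 and 7.72 FPKM in the high-flow IgG libraries and to 4.79 and 4.86 FPKM at low flow after anti-GPIbα. These values are given side by side, with no test.

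The Ly6 family showed no common direction. Ly6c2, a monocyte and neutrophil form of Ly6C (chr15:74938590-74942114, mm9), was at 2.77 and 10.6 FPKM after anti-Gr1 and 34.5 and 19.7 FPKM after IgG (Log2 fold-change -1.98 ± 0.73, SE; edgeR adjusted p = 0.243). Ly6c1, which is the form of endothelial cells (chr15:74875447-74879260, mm9), was at 464 and 209 FPKM against 290 and 74 FPKM, and overlapped between the groups (Log2 fold-change 0.89 ± 0.59, SE; adjusted p = 0.42). These neighbours are near-identical, so how reads were shared between them is uncertain. Ly6e, a widely expressed relative, was at 1909 and 929 FPKM against 918 and 595 FPKM (Log2 fold-change 0.91 ± 0.37, SE; adjusted p = 0.252). Of 8 Ly6 genes tested, 3 had both anti-Gr1 libraries below and 2 above both IgG libraries.

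Cytokine genes had no common direction as a list, with interleukin-1 family members among the lower ones. Of 16 tested, 7 had both anti-Gr1 libraries below and 2 above both IgG libraries, with a median Log2 fold-change of -0.48. Il1b, interleukin-1β, was at 12.5 and 8.91 FPKM after anti-Gr1 and 188 and 47.2 FPKM after IgG, a Log2 fold-change of -3.44 ± 0.82 (SE; edgeR adjusted p = 0.243, DESeq2 adjusted p = 0.0412). Il1rn, the receptor antagonist, was at 3.1 and 2.13 FPKM against 21.1 and 5.78 FPKM, and Il1f9, an interleukin-36 cytokine, at 0.603 and 0.549 FPKM against 7.03 and 2.62 FPKM. Osm, oncostatin M, was at 0.257 and 0.541 FPKM against 6.45 and 1.73 FPKM (Log2 fold-change -3.31 ± 0.96, SE; adjusted p = 0.243). In each of these the groups did not overlap. Csf1, the growth factor of macrophages, was higher, at 83.1 and 101 FPKM against 60.1 and 42.7 FPKM (Log2 fold-change 0.87 ± 0.35, SE; adjusted p = 0.254). In the whole cytokine list, 5 genes had an unadjusted p under 0.05 and were lower and 1 was higher. Csf2rb, the shared receptor chain for GM-CSF and interleukin-3, was at 1.91 and 2.21 FPKM against 13.5 and 5 FPKM. Csf3, which encodes G-CSF itself, was at 0.511 and 2.03 FPKM against 1.44 and 0.819 FPKM, with overlap.

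The phagocyte NADPH oxidase, which makes superoxide, is shared by neutrophils, monocytes and macrophages. The 8 genes tested of the NADPH oxidase list, which also holds Nox4 and Noxo1 of related oxidases, had a median Log2 fold-change of -0.72, and 7 of them had both anti-Gr1 libraries below both IgG libraries. Cybb, the catalytic subunit, was at 15.2 and 12.4 FPKM against 22.6 and 20.7 FPKM (Log2 fold-change -0.64 ± 0.60, SE; adjusted p = 0.574). Among leukocyte adhesion genes, Selplg, the leukocyte ligand of P-selectin, was at 12.1 and 9.53 FPKM against 45.1 and 30.3 FPKM, and Itgb2, the β2 integrin chain, at 17.5 and 24.3 FPKM against 44.6 and 37.1 FPKM. Their Log2 fold-changes were -1.79 and -0.94 (adjusted p = 0.243 and 0.249). Ccr1, a chemokine receptor of neutrophils and monocytes, was at 8.71 and 6.14 FPKM against 32.9 and 18.1 FPKM.

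Monocyte and macrophage genes had medians nearer to 0 than neutrophil genes. Of 16 monocyte genes tested, 10 had both anti-Gr1 libraries below and 2 above both IgG libraries, and the median Log2 fold-change was -0.93. Of 25 macrophage genes, 10 were below and 7 above, with a median of 0.26. The macrophage list summed to 1437 and 1465 FPKM after anti-Gr1 and 2666 and 2528 FPKM after IgG, without overlap. Lyz2, given below, was a large part of that sum. The monocyte list summed to 252 and 328 FPKM against 434 and 273 FPKM, with overlap. In the high-flow IgG libraries the monocyte list summed to 471 and 539 FPKM. Ccr2, the receptor that marks inflammatory monocytes, was at 24.4 and 21.5 FPKM against 47.2 and 37.5 FPKM (Log2 fold-change -0.87 ± 0.82, SE; edgeR adjusted p = 0.575). Csf1r, the receptor for Csf1, was at 26.6 and 23.7 FPKM against 47.3 and 41.1 FPKM (Log2 fold-change -0.80 ± 0.53, SE). Cx3cr1, of patrolling monocytes, was at 10.3 and 4.57 FPKM against 7.38 and 6.04 FPKM, and Emr1, which encodes F4/80, at 5.34 and 5.1 FPKM against 6.87 and 6.03 FPKM. Values of Ccr2 and Csf1r did not overlap between the groups, whereas those of Cx3cr1 did. The Log2 fold-change of Cx3cr1 was 0.15 and became -0.49 without the anti-Gr1 1 library. Of the C1q chains, made by macrophages, C1qa was at 69.5 and 39.4 FPKM against 31.7 and 28.9 FPKM and C1qb, with overlap, at 194 and 81.8 FPKM against 73.4 and 98.8 FPKM. Lyz2, lysozyme M of the whole myeloid lineage, was at 752 and 997 FPKM against 1988 and 1869 FPKM.

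The clodronate comparison was used to place the anti-Gr1 effect beside a depletion of phagocytes in general. The difference of the 2 effects, each against its own control, was tested in the same fit, and 0 of 13401 genes had an edgeR adjusted p under 0.05, with 217 at an unadjusted p under 0.05. Of these, 142 (1.06%) had a higher Log2 fold-change after anti-Gr1 than after clodronate and 75 (0.560%) a lower one. Among the 41 monocyte and macrophage genes tested, 20 were in the first group and 0 in the second. Their median Log2 fold-change was -0.38 after anti-Gr1 and -2.40 after clodronate. DESeq2 on the 4 groups alone called 34 genes, of which 12 were on the monocyte and macrophage lists, and DESeq2 on the 7 groups called 1, Treml4.

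Treml4, a receptor of patrolling monocytes and some macrophages, was at 5.5 and 3.84 FPKM after anti-Gr1 and 8.07 and 10.1 FPKM after IgG, but at 0 and 0.0871 FPKM after clodronate and 8.2 and 14.1 FPKM after PBS liposomes. Its effects differed by 7.01 ± 1.50 (SE) on the Log2 scale (edgeR adjusted p = 1). For Ccr2 the clodronate libraries were at 1.36 and 1.7 FPKM and the PBS libraries at 14.7 and 24.3 FPKM, and the effects differed by 2.90 ± 1.19 (SE; adjusted p = 1, DESeq2 adjusted p on 4 groups = 2.09e-05). For Csf1r and Cx3cr1 they differed by 2.98 ± 0.77 and 4.41 ± 1.25 (SE), with DESeq2 adjusted p-values on 4 groups of 3.56e-05 and 1.64e-05. Cd14, the lipopolysaccharide co-receptor, C5ar1, the receptor for complement C5a, and Cybb also had differences above 0, at 2.91, 2.70 and 2.94.

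Neutrophil genes were low after both depletions. In the clodronate libraries Csf3r was at 0.477 and 1.22 FPKM against 6.31 and 19.1 FPKM in the PBS libraries, and the effects differed by 0.75 ± 0.91 (SE; edgeR adjusted p = 1). Cxcr2 was at 1.02 and 1.45 FPKM against 6.25 and 23.7 FPKM, with a difference of -1.29 ± 1.34 (SE; adjusted p = 1), and for Il1r2 the difference was 0.73 ± 0.98 (SE; adjusted p = 1). These standard errors leave room for sizeable differences in either direction. The median Log2 fold-change of the 14 surface genes was -2.47 after anti-Gr1 and -4.08 after clodronate, and 11 of the 14 differences were above 0, with a median of 1.91. For the 19 granule and cytosolic genes the medians were -2.33 and -2.27, and 8 of the differences were above 0, with a median of -0.07. Over the 33 neutrophil genes, at an unadjusted p under 0.05 the difference was above 0 for 3 genes, Chi3l3 among them (1.52), and below 0 for 1, Mpo. Of the anti-Gr1 and IgG libraries, Mpo was near 0 FPKM in all but IgG 1.

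**Figure D2:**
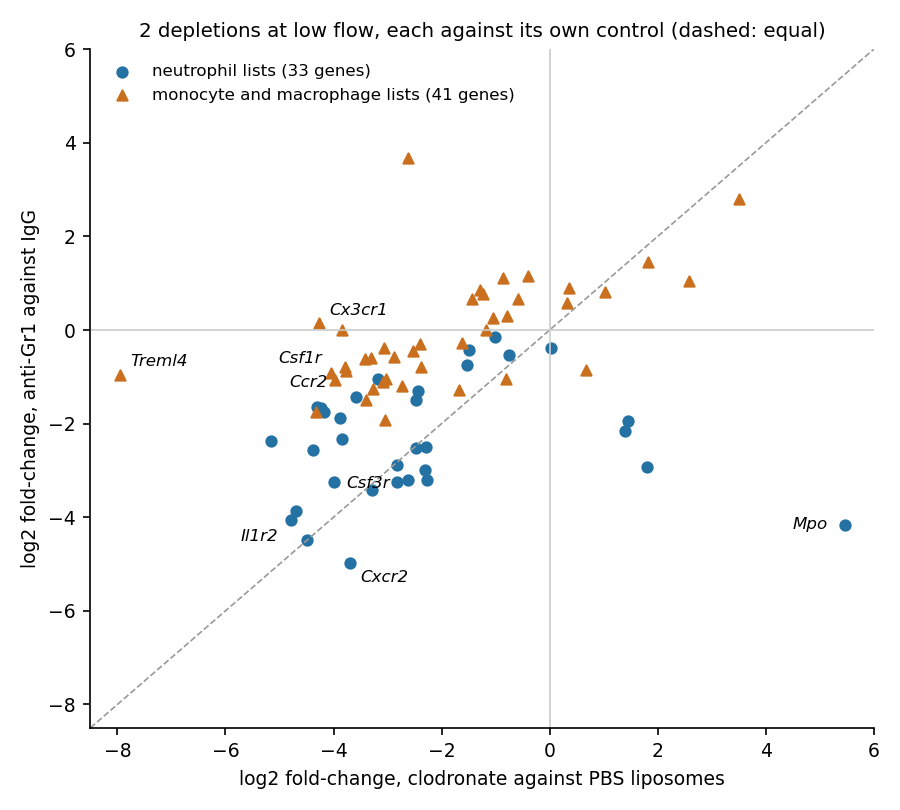
Log2 fold-change of anti-Gr1 against IgG (vertical) and of clodronate against PBS liposomes (horizontal) for the 33 neutrophil genes and 41 monocyte and macrophage genes tested; each point is a gene and the dashed line marks equal effects. Triangles such as Cx3cr1 (0.15 against -4.27) and Treml4 lie above the line, as do 11 of the 14 neutrophil surface genes and 8 of the 19 granule and cytosolic genes.

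Genes of DNA replication and mitosis were lower after anti-Gr1 in every case tested. All 43 genes had both anti-Gr1 libraries below both IgG libraries, and 33 had an unadjusted edgeR p under 0.05. The median Log2 fold-change was -2.15 for the 21 genes of DNA replication and -3.68 for the 22 genes of mitosis, a 12.8-fold lower level. The summed level of the mitosis genes was 91.4 and 46.1 FPKM after anti-Gr1 and 630 and 1117 FPKM after IgG. None of the 43 reached an adjusted p under 0.05 in the fit of 7 groups, and 36 did in the fit of the 4 libraries alone. DESeq2 on the 7 groups called 3 replication genes and 0 of the 21 mitosis genes with an adjusted p. The fit of the 4 libraries leaves out the other groups, whose spread in these genes is given below.

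Among replication genes, Pcna, the sliding clamp of the polymerases, was at 53.6 and 57.6 FPKM against 182 and 255 FPKM (Log2 fold-change -1.96 ± 0.57, SE; edgeR adjusted p = 0.243, DESeq2 adjusted p = 0.0361). Mcm7, a subunit of the replicative helicase (chr5:138605811-138613650, mm9), was at 20.8 and 24.5 FPKM against 70.6 and 114 FPKM (Log2 fold-change -2.01 ± 0.67, SE; DESeq2 adjusted p = 0.0467), and Tyms, thymidylate synthase, at 4.02 and 4.5 FPKM against 16 and 30.9 FPKM (Log2 fold-change -2.45 ± 0.79, SE; DESeq2 adjusted p = 0.0392). These 3 were the members that DESeq2 called on the 7 groups. Ccne2, cyclin E2 of the entry into S phase, was at 0.908 and 2.05 FPKM against 11.3 and 32.1 FPKM, and Rrm2, a subunit of ribonucleotide reductase, at 6.8 and 4.03 FPKM against 35.3 and 91.5 FPKM. Mcm6, at 62.7 and 85.7 FPKM against 141 and 206 FPKM, had the smallest difference (Log2 fold-change -1.21 ± 0.54, SE).

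Among mitosis genes, Cdk1, the mitotic kinase, was at 3.59 and 2.31 FPKM against 37.3 and 60.6 FPKM (Log2 fold-change -4.05 ± 1.71, SE; edgeR adjusted p = 0.262, adjusted p = 0.00998 with the 4 libraries alone). Its partner Ccnb1, cyclin B1, was at 3.76 and 3.51 FPKM against 38.1 and 69.8 FPKM. Mki67, the antigen of proliferating cells, was at 0.97 and 0.499 FPKM against 7.91 and 10.9 FPKM, Top2a, topoisomerase II, at 4.53 and 2.27 FPKM against 29.2 and 45.4 FPKM, and Cdc20, the activator of the anaphase-promoting complex (chr4:118105506-118109957, mm9), at 7.81 and 4.1 FPKM against 53.3 and 102 FPKM. In each of them the IgG 2 library was the highest of the 4.

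The other low-flow libraries varied widely in these genes. Mitosis genes summed to 38.9 and 985 FPKM in the 2 clodronate libraries, to 137 and 1162 FPKM in the 2 PBS libraries and to 24.4 and 18 FPKM in the 2 anti-GPIbα libraries. DNA replication genes summed to 251 and 1542 FPKM after clodronate and to 669 and 1489 FPKM after PBS liposomes. Thus the anti-Gr1 libraries lay within the range of the other libraries at low flow. Of the difference between the anti-Gr1 and clodronate effects in these 43 genes, 0 were above 0, and 1, Ccne2, had an unadjusted p under 0.05 (-3.75 ± 1.62, SE; adjusted p = 1).

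**Figure D3:**
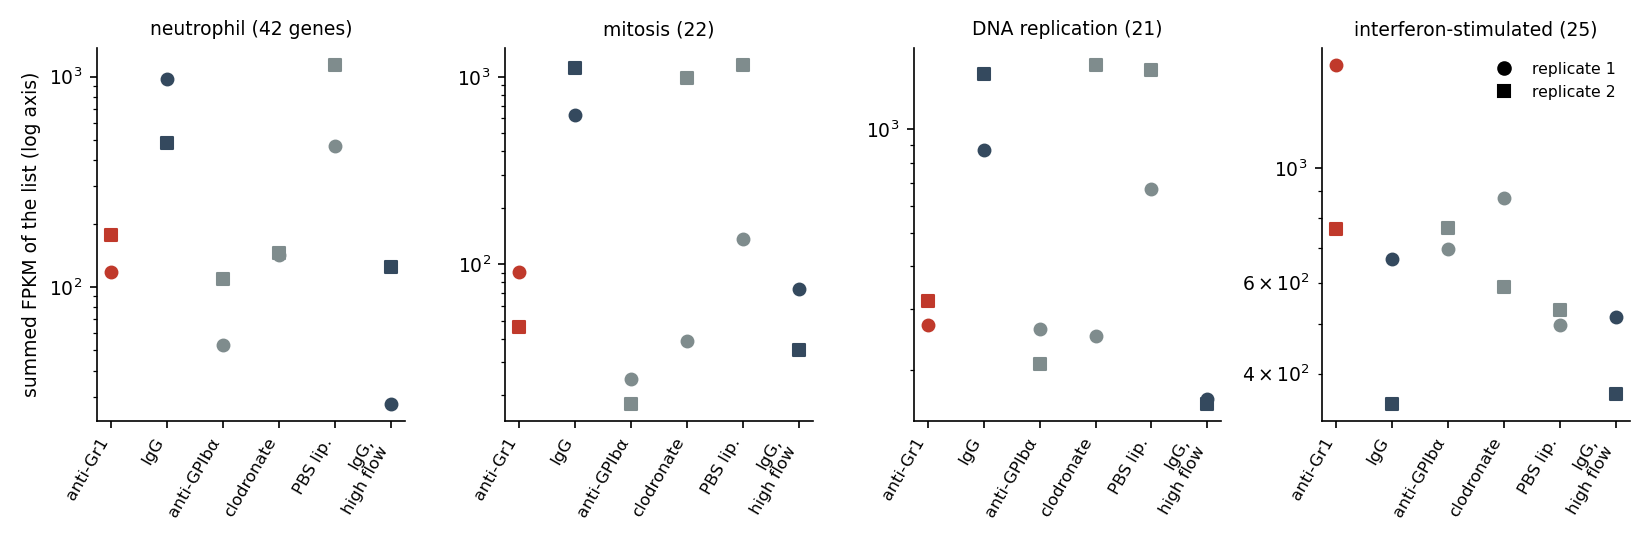
Summed FPKM (log axes, one scale for each panel) of the genes of 4 lists in 12 libraries: low-flow anti-Gr1, IgG, anti-GPIbα, clodronate and PBS liposomes, and high-flow IgG; circles are replicate 1 and squares replicate 2. Mitosis genes lie at 91.4 and 46.1 after anti-Gr1 and 630 and 1117 after IgG, with one clodronate library low and the other high, and interferon-stimulated genes are highest in the first anti-Gr1 library.

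Interferon-stimulated genes were higher after anti-Gr1. Of 25 tested, 23 had a Log2 fold-change above 0, and 18 had both anti-Gr1 libraries above and 2 below both IgG libraries. An unadjusted edgeR p under 0.05 was reached by 15 that were higher and 0 that were lower. The median Log2 fold-change was 1.30 (2.46-fold). DESeq2 on the 7 groups called 7 of the 12 with an adjusted p, while edgeR on the 4 libraries alone called 1 of the 25, Ifi44 (adjusted p = 0.046). Ifit1, which binds viral RNA (chr19:34715361-34724499, mm9), was at 54 and 17.1 FPKM against 6.72 and 1.85 FPKM (Log2 fold-change 3.05 ± 0.67, SE; adjusted p = 0.243, DESeq2 adjusted p = 0.00086), and Ifit3 at 214 and 66.3 FPKM against 38 and 16.5 FPKM (Log2 fold-change 2.36 ± 0.64, SE; DESeq2 adjusted p = 0.0167). Gbp2, a guanylate-binding protein, was at 320 and 112 FPKM against 75.5 and 30.2 FPKM. Isg15, a ubiquitin-like modifier, was at 34 and 17.9 FPKM against 11.6 and 5.15 FPKM, and its protease Usp18 at 23.5 and 9.87 FPKM against 6.08 and 3.91 FPKM. Irf7, a transcription factor of the response, was at 39.8 and 23 FPKM against 18.8 and 8.38 FPKM.

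In each of these genes replicate 1 was the higher library of both groups. The 2 genes with a Log2 fold-change below 0, Mx1 and Oas2, were near or under 1 FPKM in the 4 libraries. Cxcl10, a chemokine induced by interferon, was at 39.7 and 6.77 FPKM against 5.55 and 1.43 FPKM (Log2 fold-change 2.72 ± 1.46, SE; edgeR adjusted p = 0.335). The list summed to 1582 and 762 FPKM after anti-Gr1 and to 665 and 350 FPKM after IgG, beside 873 and 588 FPKM after clodronate and 696 and 764 FPKM after anti-GPIbα. Its median in the clodronate comparison was 0.72. The Log2 fold-change was higher after anti-Gr1 than after clodronate in 24 of the 25 genes, with a median difference of 0.93, and 0 of the 25 genes had a difference of effects with an unadjusted p under 0.05.

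Complement genes were mostly higher. Of 18 tested, 12 had both anti-Gr1 libraries above and 2 below both IgG libraries, and 6 had an unadjusted edgeR p under 0.05. Their median Log2 fold-change was 0.81. Serping1, the C1 inhibitor, was at 168 and 105 FPKM against 58.9 and 26.6 FPKM (DESeq2 adjusted p = 0.0389), Cfb, factor B, at 13.9 and 11.5 FPKM against 5.3 and 2.71 FPKM, and C4b, complement C4, at 3.52 and 7.43 FPKM against 1.22 and 0.71 FPKM. C1s, a protease of the C1 complex, was at 6.02 and 5.44 FPKM against 1.67 and 1.03 FPKM. Values of these 4 genes did not overlap between the groups.

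Fibroblast genes were higher beside the complement genes. Of 9 tested, 8 had both anti-Gr1 libraries above both IgG libraries and 6 had an unadjusted edgeR p under 0.05, and the median Log2 fold-change was 1.54. The list summed to 593 and 379 FPKM after anti-Gr1 and 272 and 207 FPKM after IgG, and to 372 and 675 FPKM after anti-GPIbα. Lum, the proteoglycan lumican, was at 82.5 and 31.3 FPKM against 20.8 and 13.6 FPKM (Log2 fold-change 1.72 ± 0.45, SE; DESeq2 adjusted p = 0.0273), Dcn, decorin, at 278 and 107 FPKM against 65.5 and 51.5 FPKM, and Col3a1, collagen III, at 32.8 and 68.7 FPKM against 17.5 and 18.2 FPKM. Col1a1, collagen I, was at 3.32 and 16.9 FPKM against 1.65 and 2.76 FPKM. The part of these cells in the complement and interferon values was not tested. Of 11 smooth muscle genes tested, 0 were below and 1 above both IgG libraries, with sums of 1113 and 3803 FPKM against 2694 and 2875 FPKM.

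Endothelial genes, which mark the layer flushed from the artery, had no common direction. Of 17 tested, 2 had both anti-Gr1 libraries below and 5 above both IgG libraries, the median Log2 fold-change was 0.19, and the sums were 4539 and 3843 FPKM against 3602 and 3229 FPKM. Pecam1, which encodes CD31, was at 1144 and 1264 FPKM against 770 and 496 FPKM (Log2 fold-change 0.95 ± 0.33, SE; edgeR adjusted p = 0.243). Vwf, von Willebrand factor, was at 205 and 378 FPKM against 127 and 69.8 FPKM (Log2 fold-change 1.60 ± 0.49, SE; DESeq2 adjusted p = 0.0372). Emcn, endomucin, was lower, at 180 and 146 FPKM against 278 and 396 FPKM (Log2 fold-change -1.04 ± 0.37, SE; adjusted p = 0.243), and Angpt2, which is induced in activated endothelium, was at 21.1 and 72.9 FPKM against 129 and 215 FPKM (Log2 fold-change -1.83 ± 0.85, SE; adjusted p = 0.279). Klf2, the transcription factor of high laminar flow, was at 67.9 and 47.9 FPKM against 105 and 23.2 FPKM, with overlap, beside 679 and 932 FPKM in the high-flow IgG libraries.

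Of 13 leukocyte adhesion genes tested, 5 had both anti-Gr1 libraries below and 2 above both IgG libraries, and 2 genes in each direction had an unadjusted edgeR p under 0.05. The list's median was -0.19. Icam1 was at 508 and 525 FPKM after anti-Gr1 and 282 and 211 FPKM after IgG (Log2 fold-change 1.09 ± 0.32, SE; edgeR adjusted p = 0.243, DESeq2 adjusted p = 0.0427), and Vcam1 at 1119 and 842 FPKM against 650 and 510 FPKM (Log2 fold-change 0.77 ± 0.32, SE; adjusted p = 0.259). The selectins that catch rolling neutrophils overlapped between the groups: Selp was at 546 and 384 FPKM against 429 and 442 FPKM and Sele at 28.4 and 124 FPKM against 94.2 and 86.3 FPKM. Cx3cl1, fractalkine, was at 86.3 and 103 FPKM against 44.5 and 43.9 FPKM (Log2 fold-change 1.12 ± 0.36, SE; adjusted p = 0.243). The neutrophil chemokine Cxcl1 was at 93.4 and 42.5 FPKM against 65.8 and 28.7 FPKM, and the monocyte chemokine Ccl2 at 27.5 and 14.2 FPKM against 24.7 and 11.3 FPKM, both with overlap. Over the 25 chemokines tested, 3 were below and 8 above both IgG libraries, and 1 had an unadjusted p under 0.05.

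Of 13 genes tested that belong to or are induced by NF-kB, 4 had both anti-Gr1 libraries above and 1 below both IgG libraries, and 8 overlapped. The list's median Log2 fold-change was 0.12. An unadjusted edgeR p under 0.05 was reached by 3 genes, and all 3 were higher. They included Tnfaip3, the inhibitor A20, at 24.8 and 26.7 FPKM against 11.5 and 7.93 FPKM (Log2 fold-change 1.43 ± 0.33, SE; adjusted p = 0.243, DESeq2 adjusted p = 0.0169) and Relb at 32.8 and 44.6 FPKM against 24.7 and 23.6 FPKM (Log2 fold-change 0.71 ± 0.24, SE; adjusted p = 0.243). Genes of the uptake of dying cells and of resolution had 10 of 16 above and 3 below both IgG libraries, with a median of 0.85. Abca1, which exports cholesterol, was at 15.5 and 17.9 FPKM against 6.4 and 2.49 FPKM (Log2 fold-change 1.94 ± 0.59, SE; DESeq2 adjusted p = 0.0372), and Gas6, the ligand of the Axl and Mertk receptors, at 303 and 209 FPKM against 141 and 75.6 FPKM.

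Of 23 splicing regulators tested, 15 had both anti-Gr1 libraries below, 1 had them above, 6 had an unadjusted edgeR p under 0.05, and the median Log2 fold-change was -0.46. Hnrnpa1 was at 54.4 and 72.6 FPKM against 136 and 182 FPKM (Log2 fold-change -1.30 ± 0.44, SE) and Srsf3 at 150 and 181 FPKM against 257 and 288 FPKM (Log2 fold-change -0.70 ± 0.27, SE), while Rbfox2 was at 2.99 and 3.92 FPKM against 4.72 and 5.25 FPKM (-0.51; adjusted p = 0.417). In the unfolded protein response, 8 of 15 were below and 2 above, with a median of -0.59. Creld2 and Hsp90b1, chaperones of the endoplasmic reticulum, were at 55.6 and 53.9 FPKM against 101 and 145 FPKM and at 286 and 257 FPKM against 454 and 595 FPKM. Glycolysis genes had 8 of 17 below and 3 above, with a median of -0.37. Platelet genes, the target of the other antibody, had 2 of 14 below and 3 above and 0 at an unadjusted p under 0.05, and Pf4, platelet factor 4, was at 31.8 and 46 FPKM against 30.3 and 32.5 FPKM. T cell genes had 7 of 9 below, with a median Log2 fold-change of -1.46, at sums of 13.6 and 5.28 FPKM against 24.7 and 17.9 FPKM, with 1 at an unadjusted p under 0.05.

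Markers of other cell types were counted in the same way. Of 14 dendritic cell and MHC class II genes, 5 had both anti-Gr1 libraries below and 2 above both IgG libraries, at a median Log2 fold-change of -0.42. NK cell genes had 3 of 6 below and 0 above (median -0.46), and the 3 B cell genes overlapped (median -0.37). Of 4 genes of eosinophils, basophils and mast cells 1 was below and 1 above (median -0.04), as was the case for the 3 Schwann cell genes (median 1.02). Erythroid and adipocyte genes each had 1 gene above and 0 below, of 7 (median 0.59) and of 9 (median 0.57), and the 4 skeletal muscle genes overlapped (median 1.36).

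A further group of lists had medians between -0.30 and 0.18. These were granulopoiesis signals (4 of 9 below and 1 above, median -0.30), coagulation (6 of 13 below and 4 above, median -0.27), chemokine receptors (4 of 12 below and 1 above, median -0.12), immediate early genes (1 of 15 below and 1 above, median -0.02), flow-responsive endothelial genes (3 of 12 below and 1 above, median -0.01), and matrix and remodelling (5 of 19 below and 2 above, median 0.18). Of the coagulation genes, 4 had an unadjusted edgeR p under 0.05 and were higher and 1 was lower.

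**Figure D4:**
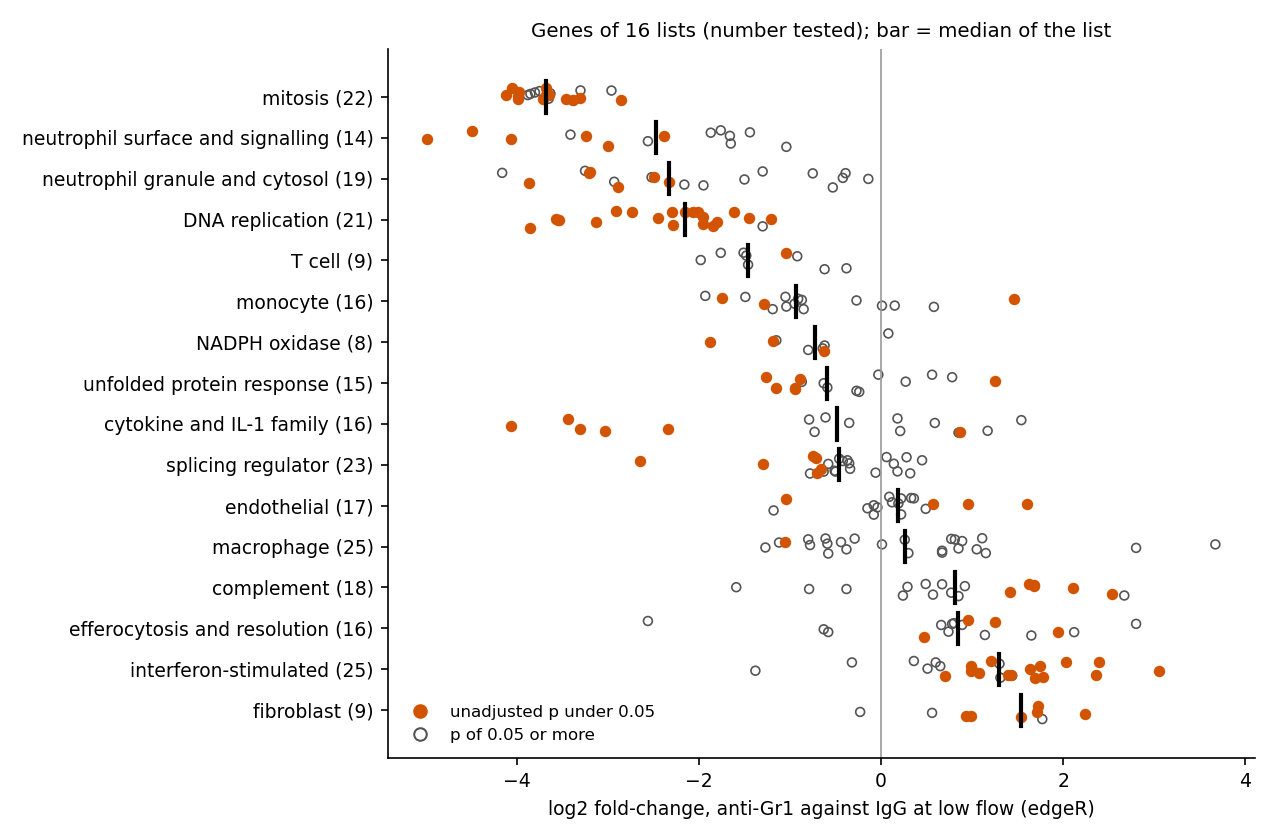
Log2 fold-change of anti-Gr1 against IgG for each gene tested of 16 lists, with the number tested in brackets; filled points have an unadjusted edgeR p under 0.05, open points do not, and the bar is the median of the list. Medians run from -3.68 for mitosis and -2.47 for the neutrophil surface to 1.30 for interferon-stimulated genes and 1.54 for fibroblast genes, and no gene passed after adjustment.

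Genes were also named by size and by test. An unadjusted edgeR p under 0.05, groups that did not overlap and 1 FPKM in the higher group were met by 1354 lower and 960 higher genes. The 10 with the largest fitted Log2 fold-change below 0 were Tnnt2, 9230102K24Rik, Anubl1, Hist1h2bj, Fam54a, Kif18b, Lrr1, Cxcr2, Chi3l1 and Aspm. Tnnt2, cardiac troponin T, was at 0 in both anti-Gr1 libraries and at 1.54 and 2.02 FPKM after IgG, at least 19.7-fold lower with a floor of 3 counts over the group. The genes 9230102K24Rik and Hist1h2bj were also at 0 in both, at least 16-fold and 5.33-fold lower, so that the place of these 3 genes in the order is not set by the counts. Kif18b, a mitotic kinesin, was at 0.266 and 0.139 FPKM against 5.51 and 9.56 FPKM, and Aspm, a protein of the spindle poles, at 0.187 and 0.0457 FPKM against 2.43 and 3.11 FPKM. Chi3l1, a chitinase-like protein, was at 0 and 0.0823 FPKM against 1.97 and 0.749 FPKM. The 10 with the largest Log2 fold-change above 0 were Cd5l, Serpina3f, Gbp10, Car6, Gm12185, Ifit1, Gm4951, Pamr1, Serpina3g and Tgtp1. In the IgG libraries Cd5l had 1 and 2 counts, Serpina3f 7 and 0 and Car6 2 and 2. Their places in the order are therefore uncertain. Gbp10 and Tgtp1, interferon-inducible GTPases, were at 7.43 and 1.43 FPKM against 0.587 and 0.0857 FPKM and at 88.5 and 34.4 FPKM against 14.9 and 3.08 FPKM.

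The genes with the smallest DESeq2 adjusted p on the 7 groups were named in each direction. After Il1r2, the lower ones were Mbd2, Ublcp1, Chi3l3, Tspan6, Chn1, Id1, Gng10, Alox5ap and Rbm3. Mbd2, which reads methylated DNA, was at 40.7 and 25.9 FPKM against 92.5 and 87.8 FPKM (Log2 fold-change -1.43 ± 0.22, SE; edgeR adjusted p = 0.243, DESeq2 adjusted p = 6.15e-05). Alox5ap, the partner of 5-lipoxygenase in leukotriene synthesis and a gene of myeloid cells, was at 38.3 and 35.4 FPKM against 92.5 and 87.6 FPKM (Log2 fold-change -1.27 ± 0.28, SE). Id1, an inhibitor of differentiation induced by BMP signals, was at 46.5 and 28.2 FPKM against 89.7 and 115 FPKM. Rbm3, a cold-inducible RNA-binding protein, was at 183 and 195 FPKM against 411 and 425 FPKM (Log2 fold-change -1.13 ± 0.26, SE). The higher ones were Ifit1, Apol9b, Il6st, Nr1d2, Apol9a, Kank1, Samd9l, Cp, Col23a1 and Adar. Il6st, the gp130 receptor chain of the interleukin-6 family, was at 221 and 343 FPKM against 122 and 79.7 FPKM (Log2 fold-change 1.52 ± 0.34, SE; DESeq2 adjusted p = 0.00414). Cp, ceruloplasmin, was at 343 and 257 FPKM against 94 and 52.2 FPKM (Log2 fold-change 2.05 ± 0.54, SE), and Nr1d2, a nuclear receptor of the circadian clock, at 48.6 and 53 FPKM against 25.1 and 17.8 FPKM. Apol9a and Apol9b are near-identical copies, and how reads were shared between them is uncertain.

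**Figure D5:**
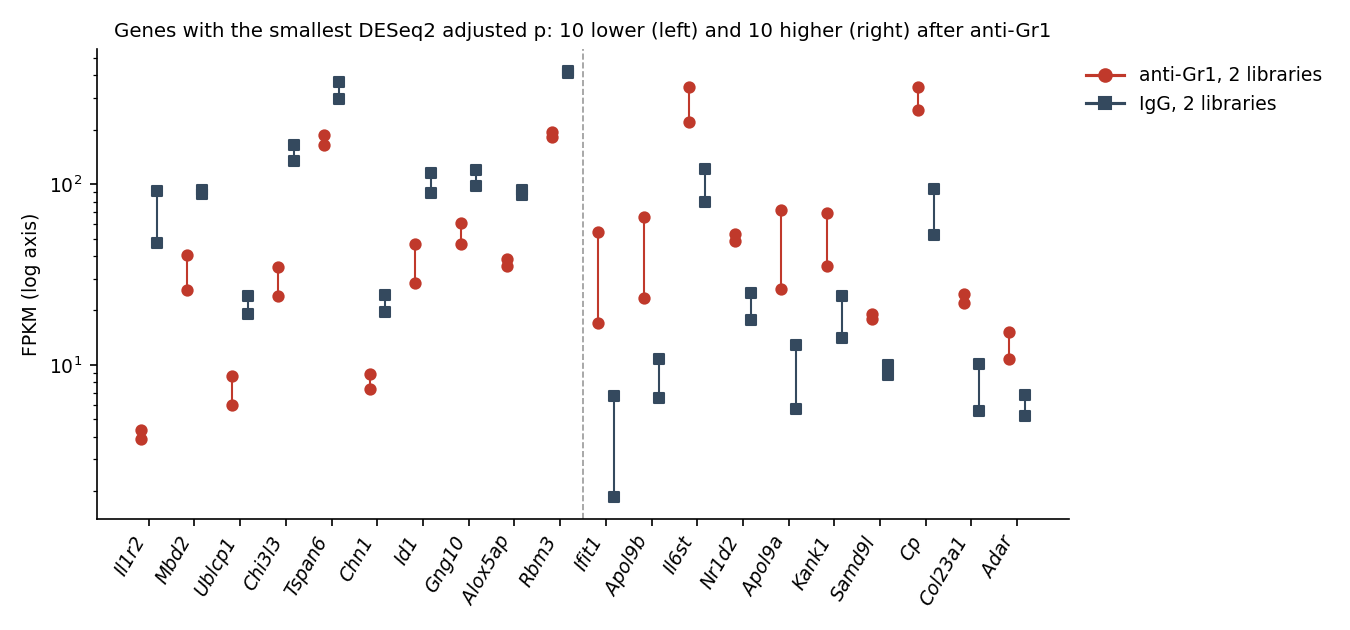
FPKM (log axis) in the 2 anti-Gr1 libraries (circles) and 2 IgG libraries (squares) of the 10 lower and 10 higher genes with the smallest DESeq2 adjusted p on the 7 groups. In each gene the groups do not overlap, as for Mbd2 at 25.9 and 40.7 FPKM against 87.8 and 92.5 FPKM.

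Anti-Gr1 and anti-GPIbα share the IgG libraries, so they were set against each other directly. Of 13401 genes, 0 had an edgeR adjusted p under 0.05 (smallest 0.0608), and 1013 (7.56%) were higher and 396 (2.96%) lower after anti-Gr1 at an unadjusted p under 0.05, while DESeq2 on the 7 groups called 365. Neutrophil genes were among the higher ones. Of the 33 tested, 14 were higher at an unadjusted p under 0.05 and 0 lower, with a median difference of 2.05 on the Log2 scale. Il1r2 was at 0.189 and 0.323 FPKM after anti-GPIbα, below its 4.35 and 3.87 FPKM after anti-Gr1 (Log2 difference 4.01; edgeR adjusted p = 0.128), and Csf3r at 0.281 and 0.223 FPKM (3.20; adjusted p = 0.142). Of 41 monocyte and macrophage genes, 23 were higher and 1 lower, with a median difference of 2.04. Ccr2 was at 2.17 and 1.11 FPKM after anti-GPIbα (3.85; adjusted p = 0.156). DNA replication genes had a median difference of 0.41, with 17 of 21 above 0. Mitosis genes had one of 2.00, with 22 of 22 above 0. In neither list did a gene have an unadjusted p under 0.05 in either direction.

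Some markers moved with single libraries. Thyroid genes were highest in IgG 1, where the list summed to 10.6 FPKM against 0.101 FPKM in IgG 2 and 0.0752 and 0.142 FPKM after anti-Gr1. IgG 1 was also the library with the higher sum of neutrophil genes, at 969 FPKM against 481 FPKM, although not for each gene, and with the higher Fos, at 273 FPKM against 27.6 FPKM in IgG 2, and the part of this library's other tissue in the comparison was not tested. The anti-Gr1 libraries were far apart from each other in Esm1 and Thbs1, named after their values were seen. Esm1 was at 0.174 and 42 FPKM and Thbs1 at 394 and 2234 FPKM. The groups overlapped for Thbs1, whereas for Esm1 both IgG libraries were higher, at 91.3 and 86.7 FPKM.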

How the data were processed

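The authors aligned reads to the mm9 genome with STAR and counted them with RSEM, and they deposited expected counts for 21675 entries with effective lengths. These expected counts need not be whole (8.47 to 9.55% of the values in the 4 libraries were not) and were rounded. Only 24 count columns of the table, the 150 bp reads and reads trimmed to 100 bp, were used, and 180 other value columns were not used. One entry that names no gene was left out. FPKM was computed from the deposited counts, effective lengths and library totals. The 14 libraries (7 groups of 2) were fitted with edgeR 4.0.16 in R 4.3.3 (filterByExpr, TMM, quasi-likelihood test, Benjamini-Hochberg over all 13401 genes), with SE as the Log2 fold-change over the root of F. DESeq2 1.42.0 was an alternative, on the 7 groups or on the compared groups alone. The edgeR steps were tested on simulated data. Of 541 genes in 38 lists, 538 had a row and 483 were tested. Named genes were list members, the 10 largest Log2 fold-changes in each direction (unadjusted p under 0.05, no overlap, 1 FPKM) and the 10 smallest DESeq2 adjusted p in each direction. The samples, lists and rules were chosen with earlier results of these data known. Nothing says whether libraries of a group came from separate surgeries, so p-values measure the spread between pools. Counting intervals cover counting error only. Promoters were taken from RefSeq tables of GRCm38.p6 by symbol. List members that are not named are included in the counts only.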

Additional observations from a re-analysis of the deposited data

How the results depend on the processing

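The count of genes with an adjusted p under 0.05 between anti-Gr1 and IgG depended on the tool and on the libraries in the fit. It was 0 with edgeR on the 7 groups, 201 with DESeq2 on the 7 groups, 225 with edgeR on the compared groups alone and 790 with DESeq2 on those alone. It was 0 with edgeR on the 5 low-flow groups, with DESeq2 size factors, without a filter, at 1 FPKM, with robust dispersion, with reads trimmed to 100 bp (the trimmed reads were chosen after seeing the data), and without each replicate in turn (0 to 0). The genes at an unadjusted p under 0.05 were 2432 and became 530 without the IgG 2 library, against 2165 to 2422 without each of the others. The cause was not tested. For the difference between the anti-Gr1 and clodronate effects the count was 0, 1 with DESeq2 on the 7 groups and 34 with DESeq2 on the 4 groups alone, and 0 to 0 without each replicate in turn. For anti-Gr1 against anti-GPIbα it was 0, but 365 with DESeq2 on the 7 groups, 71 with edgeR and 496 with DESeq2 on the pair alone, 75 with the 5 low-flow groups, 76 without a filter, 3 at 1 FPKM, 50 with trimmed reads and 0 to 150 without each replicate, the 150 being without the anti-Gr1 1 library.

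The median Log2 fold-change of the neutrophil genes was -2.38 and lay between -2.47 and -2.27 under the other settings, and between -3.09 and -1.18 without each replicate in turn. The lowest came without IgG 2 and the highest without IgG 1. The pooled SD of the library medians of these genes was 0.67 in log2 CPM. Of 1576 values of the 113 genes tracked, 1574 kept their direction. Genes whose groups did not overlap, which some were named for, could hardly change direction, so this count is no measure of robustness. The exceptions were Cx3cr1 and C1qb, whose Log2 fold-change ran from -0.49 to 0.58 and from -0.01 to 1.13 without each replicate in turn, the lowest in both being without the anti-Gr1 1 library.

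Replicate numbers 1 and 2 were shared by all groups, but the labels do not tie equal numbers to the same mice or day. The correlation of the replicate differences of anti-Gr1 and IgG was 0.092 over 13401 genes. With a replicate block the count was 0 for anti-Gr1 against IgG (2968 at an unadjusted p under 0.05), 0 for the difference to the clodronate effect and 4 for anti-Gr1 against anti-GPIbα, and the neutrophil median was -2.47.

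The biological coefficient of variation over the 7 groups was 0.340, with 2 pools a group, and p-values rest on that spread.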

Other observations

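The values of both anti-Gr1 libraries were also placed against the 8 other low-flow libraries. The genes below were chosen after their values were seen and carry no test. Of 11220 genes with at least 1 FPKM on average over the 10 low-flow libraries, 221 (1.97%) had both anti-Gr1 libraries below all 8 others and 136 (1.21%) had both above, and whether other pairs of libraries give such shares was not tested. Cul3, the scaffold of a family of ubiquitin ligases, was at 9.28 and 8.9 FPKM after anti-Gr1, 19.8 and 19.1 FPKM after IgG, 20.2 and 36.9 FPKM after anti-GPIbα, 19.7 and 27 FPKM after clodronate and 28.3 and 37.6 FPKM after PBS liposomes. Chn1, a Rac GTPase-activating protein, was at 8.94 and 7.38 FPKM, with the other 8 libraries between 15.1 and 30.9 FPKM. Mbd2 was at 40.7 and 25.9 FPKM, with the others between 87.8 and 121 FPKM. At high flow, Mbd2 was at 23.4 and 20.9 FPKM after IgG and 103 and 102 FPKM after PBS liposomes, Cul3 at 9.63 and 8.19 FPKM after IgG and 53.6 and 48.3 FPKM after PBS liposomes, and Chn1 at 11.7 and 11.5 FPKM after IgG and 31.6 and 36.2 FPKM after PBS liposomes. For these 3 genes the high-flow IgG libraries were thus also below all 8 of these low-flow libraries, and the high-flow PBS libraries were not.

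Col3a1 was at 32.8 and 68.7 FPKM after anti-Gr1, with the other 8 low-flow libraries between 4.82 and 18.7 FPKM and the high-flow IgG libraries at 36 and 57.3 FPKM. Ltbp2, a matrix protein of elastic fibres, was at 4.15 and 5.17 FPKM, with the others between 0.478 and 2.4 FPKM. Mmp13, a collagenase, was at 4.75 and 3.14 FPKM, with the others between 0.109 and 1.9 FPKM. Cd274, which encodes PD-L1, was at 18.2 and 12.3 FPKM, with the others between 1.26 and 8.47 FPKM. Axl, a receptor for Gas6, was at 10.7 and 15.2 FPKM, with the others between 3.15 and 8.1 FPKM.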
